A study of Mus musculus with 2 samples.

Results

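Pde10a, Grb14, Pla2g2e, Lhfp and Fam198b are 5 genes with roles in or near signalling, out of 14959 genes counted in single cells of the mouse melanoma lines B16F10 and B16F0. They were chosen by name because their RNA had been seen to be higher in B16F10 than in B16F0, so the difference between the lines is given below as a description and carries no test. B16F10 is labelled a highly metastatic subclone and B16F0 the parental line. Each line was measured as 1 library of a 3' single-cell RNA kit that counts molecules by unique molecular identifiers (UMIs), with 1574 B16F10 cells and 2582 B16F0 cells. The labels give no treatment, passage or culture detail. With 1 library per line a difference between the lines has no replicate check, and a difference between cultures cannot be told apart from a difference between the lines. All intervals below are 95% intervals that cover counting error only.

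Signals that reach a melanocyte from outside are carried inward by second messengers and by receptor kinases. The receptor Mc1r raises cyclic AMP, which activates protein kinase A and, through Creb1, the pigment cell regulator Mitf, and phosphodiesterases end this signal by breaking the cyclic nucleotide down. Receptor tyrosine kinases such as Met and the insulin receptor act through adaptors that bind their phosphorylated tails, and phospholipases A2 release fatty acids from membrane lipids, some of which become eicosanoids.

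Pde10a encodes a phosphodiesterase that breaks down both cyclic AMP and cyclic GMP. Grb14 encodes an adaptor of the Grb7 family that binds the activated insulin receptor and holds back its kinase. Pla2g2e encodes a secreted phospholipase A2. Lhfp encodes a membrane protein of the tetraspan LHFPL family, and its cellular role is little described. Fam198b, named Gask1b in RefSeq, encodes a Golgi-associated membrane protein related to the kinases of the secretory pathway.

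The genes lie on 4 chromosomes of the mouse build GRCm38, all annotated by GENCODE as protein coding. Pde10a spans chr17:8525372-8986648 on the plus strand, Grb14 spans chr2:64912476-65024987 on the minus strand, and Pla2g2e spans chr4:138877942-138882817 on the plus strand. Lhfp, at chr3:53041528-53261679, and Fam198b, at chr3:79884533-79946280, share a chromosome and the plus strand but lie 26.6 Mb apart. A measured gene overlaps Pde10a (Gm17087), Lhfp (Gm42901) and Fam198b (Gm36569), each on the opposite strand and each with at most 16 UMIs in either library.

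The promoter windows of 4 of the genes are shown to compare the RefSeq start regions of genes that were chosen together. Each runs from 250 bases before to 50 bases after the RefSeq start in GRCm38.p6, on the gene's own strand, 5′ to 3′. Capitals mark a match, on either strand, to one of 6 motifs: the E-box CACGTG, the M-box CATGTG, the cyclic AMP response element half-site TGACG, the AP-1 site TGAGTCA, the GC box GGGCGG and the TATA box TATAAA. The windows are chr2:65022717-65023016 on the minus strand for Grb14, chr4:138877692-138877991 on the plus strand for Pla2g2e, chr3:53041297-53041596 on the plus strand for Lhfp and chr3:79885680-79885979 on the plus strand for Fam198b, which matched RefSeq by a synonym.
Grb14: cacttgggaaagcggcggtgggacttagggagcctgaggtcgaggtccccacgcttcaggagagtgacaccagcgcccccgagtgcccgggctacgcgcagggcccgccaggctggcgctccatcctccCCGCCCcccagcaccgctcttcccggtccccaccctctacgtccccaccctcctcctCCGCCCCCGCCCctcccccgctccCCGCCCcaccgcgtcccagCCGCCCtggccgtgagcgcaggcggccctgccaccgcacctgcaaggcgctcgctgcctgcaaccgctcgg
Pla2g2e: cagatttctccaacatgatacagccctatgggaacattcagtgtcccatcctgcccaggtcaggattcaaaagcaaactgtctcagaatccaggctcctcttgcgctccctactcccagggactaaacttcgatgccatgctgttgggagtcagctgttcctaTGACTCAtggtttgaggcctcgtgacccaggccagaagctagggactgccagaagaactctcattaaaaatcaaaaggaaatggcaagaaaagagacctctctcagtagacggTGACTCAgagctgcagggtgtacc
Lhfp: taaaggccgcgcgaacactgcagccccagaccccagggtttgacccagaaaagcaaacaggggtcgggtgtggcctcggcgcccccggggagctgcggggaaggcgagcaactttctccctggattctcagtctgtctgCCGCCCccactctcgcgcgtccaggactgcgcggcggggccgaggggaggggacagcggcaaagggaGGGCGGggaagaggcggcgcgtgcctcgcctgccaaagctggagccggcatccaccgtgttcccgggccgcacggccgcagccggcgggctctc
Fam198b: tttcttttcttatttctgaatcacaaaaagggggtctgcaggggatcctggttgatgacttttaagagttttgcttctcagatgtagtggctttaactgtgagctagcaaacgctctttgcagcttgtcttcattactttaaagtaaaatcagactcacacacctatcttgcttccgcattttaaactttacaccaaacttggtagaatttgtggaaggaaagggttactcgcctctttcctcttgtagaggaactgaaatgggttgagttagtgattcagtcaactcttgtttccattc

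The 4 windows differ in base content, from 75.3% G and C in Grb14 and 71.3% in Lhfp to 50.3% in Pla2g2e and 39.7% in Fam198b, beside a median of 52.7% over all 32851 mouse windows. Grb14 holds 5 matches to the GC box and Lhfp 2, a motif present in 35.7% of all windows. Pla2g2e holds 2 matches to the AP-1 site, both as its reverse complement TGACTCA, a motif in 5.20% of all windows. Fam198b holds no match to any of the 6. Pde10a has 2 RefSeq windows, of 71.3% and 56.7% G and C, with 1 GC box each. They are chr17:8801495-8801794 and chr17:8849735-8850034, inside the GENCODE span of the gene and away from its start at 8525372. The windows of Grb14 and Fam198b also lie inside the GENCODE spans of these genes, so the GENCODE starts were not searched for motifs there. None of the windows of the 5 genes holds the E-box (7.15% of all windows), the M-box (14.2%), the cyclic AMP half-site (20.8%) or the TATA box (13.6%). No match overlapped another. A match is a run of letters and not a shown binding site, and its absence speaks only of this window.

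The libraries held 56748682 UMIs in B16F10 and 94268486 UMIs in B16F0, with medians of 34950.5 UMIs per B16F10 cell and 35503.5 UMIs per B16F0 cell. Mitochondrially encoded genes took 6.78% of UMIs in B16F10 and 5.41% in B16F0, and 6 cell barcodes occurred in both libraries. All 7 melanocyte lineage markers were measured in both lines, with a summed level of 7733 CPM (UMIs of a gene per 1000000 UMIs of the library) in B16F10 and 7852 CPM in B16F0. The single markers moved both ways. In log2 ratios of B16F10 over B16F0, 2 were higher by 1.5-fold or more (Mitf 0.86, Tyrp1 0.69). By the same measure 3 were lower (Pmel -0.76, Mlana -0.77, Tyr -1.74). Among all genes at 10 CPM or more, 11.3% were higher and 6.14% lower by that fold. Of the markers of other cell types, 3 of 7 for fibroblasts summed to 3.82 CPM in B16F10 and 3.99 CPM in B16F0, and 3 of 7 for macrophages to 3.93 CPM in B16F10 and 6.43 CPM in B16F0, with Cd14 at 0 in B16F10. The 2 of 5 endothelial markers measured summed to 2.19 CPM in B16F10 and 0.594 CPM in B16F0, and Epcam, the 1 keratinocyte marker measured, stood at 0 in B16F10 and 0.361 CPM in B16F0. Of 6 T and NK cell markers and 6 erythroid markers looked for, 0 were measured.

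All 5 genes stood at least 2-fold higher in B16F10, a threshold passed by 1.53% of the 5296 genes that reached 20 CPM in one line or the other, from which nothing is read since the genes were chosen on this contrast. Their median log2 ratio of B16F10 over B16F0 was 2.38, beside 0.12 over those 5296 genes, and it was 2.38 without the cells whose barcode occurred in both libraries. Pde10a stood at 101 CPM (98.3 to 104) from 5724 UMIs in B16F10 and at 12.0 CPM (11.3 to 12.7) from 1131 UMIs in B16F0, a log2 ratio of 3.07 (2.98 to 3.16) that ranked 5 among the 5296. Grb14 stood at 50.2 CPM (48.4 to 52.1) in B16F10 and at 7.45 CPM (6.91 to 8.02) in B16F0, a log2 ratio of 2.75 and rank 7. The enzyme that ends the cyclic nucleotide signal and the insulin receptor adaptor thus had the widest gaps of the group, with intervals of the levels far apart.

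Pla2g2e stood at 82.9 CPM (80.5 to 85.3) in B16F10 and at 15.9 CPM (15.1 to 16.7) in B16F0, a log2 ratio of 2.38 and rank 10. Lhfp stood at 61.4 CPM (59.4 to 63.5) in B16F10 and at 12.3 CPM (11.6 to 13.0) in B16F0, a log2 ratio of 2.32 and rank 11. Fam198b stood at 268 CPM (264 to 272) in B16F10 and at 67.0 CPM (65.3 to 68.6) in B16F0, a log2 ratio of 2.0 and rank 13. The ratios of Pla2g2e and Lhfp overlapped within their intervals, and those of the other 3 genes stood apart from each other and from both. Fam198b had the narrowest gap of the group.

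The higher levels came with more cells in which a molecule was seen. To remove depth, each cell was thinned to 23173 UMIs, which left 1416 B16F10 cells and 2194 B16F0 cells and left out 158 B16F10 cells and 388 B16F0 cells that were shallower. Pde10a was then seen in 67.5% of B16F10 cells (65.0 to 70.0) and in 18.8% of B16F0 cells (17.2 to 20.5) (73.6% of B16F10 cells and 25.2% of B16F0 cells before thinning). Grb14 was seen in 30.4% (28.0 to 32.8) of thinned B16F10 cells and 10.6% (9.32 to 11.9) of thinned B16F0 cells (36.9% of B16F10 cells and 13.0% of B16F0 cells before thinning). Grb14 was therefore unseen at this depth in most B16F10 cells, although its ratio between the lines ranked next to that of Pde10a.

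Pla2g2e was seen in 61.1% of thinned B16F10 cells and 22.2% of thinned B16F0 cells (69.4% of B16F10 cells and 28.4% of B16F0 cells before thinning). Lhfp was seen in 65.0% of thinned B16F10 cells and 16.4% of thinned B16F0 cells (74.4% of B16F10 cells and 22.2% of B16F0 cells before thinning). Fam198b was seen in 96.2% of thinned B16F10 cells and 59.9% of thinned B16F0 cells (98.5% of B16F10 cells and 69.5% of B16F0 cells before thinning). All 5 shares were higher in B16F10, with intervals that did not overlap between the lines. The share of all genes doing so was not computed, and nothing is read from this count since the genes were chosen on this contrast. Both cultures are of 1 cell type, so there was no population without these genes in which the background from free RNA could be read.

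The genes differed in how evenly the molecules were spread over B16F10 cells. Per thinned B16F10 cell the lowest, median and highest number of UMIs was 0, 1 and 20 for Pde10a, 0, 0 and 29 for Grb14, 0, 1 and 21 for Pla2g2e, 0, 1 and 11 for Lhfp, and 0, 5 and 37 for Fam198b. The tenth of B16F10 cells with the most UMIs of a gene held 74.3% of all Grb14 UMIs, but 41.5% for Pla2g2e, 38.0% for Pde10a, 34.1% for Lhfp and 25.4% for Fam198b. The Fano factor, the variance over the mean, was 8.66 for Grb14 in B16F10, rank 54 of 9088 genes, and 1.75 for Lhfp, rank 741, beside a median of 1.11. Grb14 RNA was thus concentrated in a minority of B16F10 cells.

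**Figure D1:**
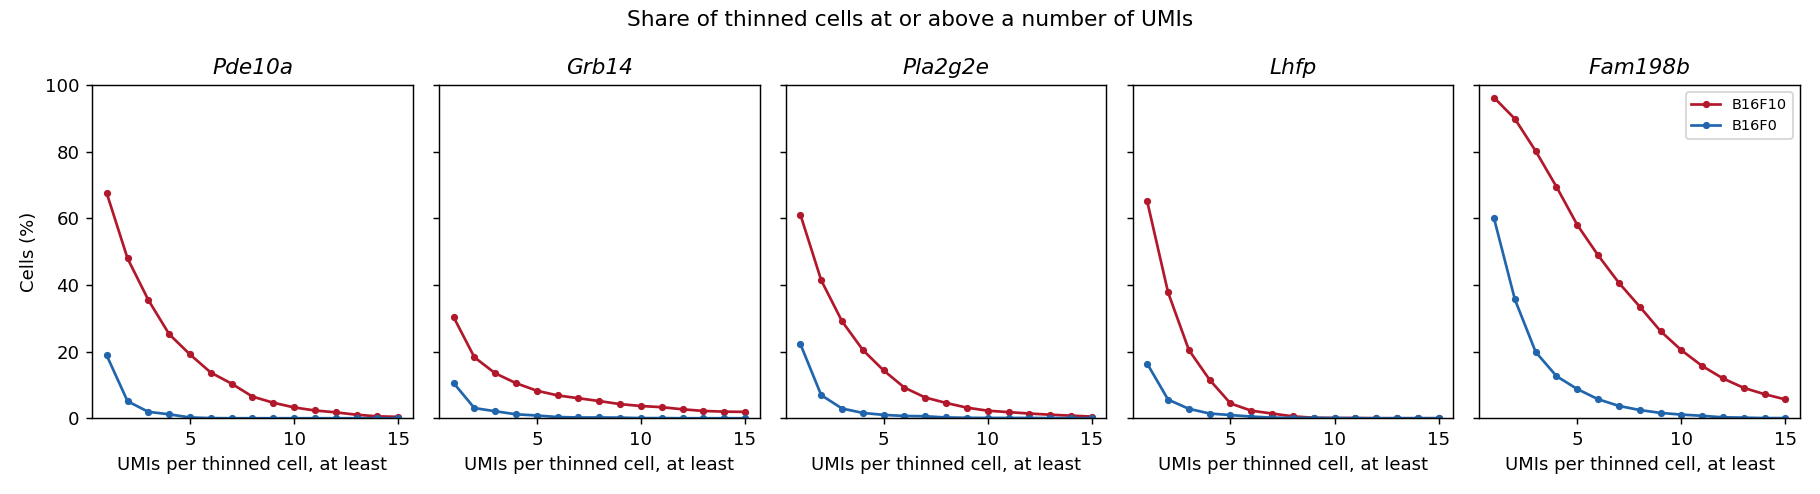
Share of thinned cells (percent) with at least the number of UMIs on the x axis, for each gene, in B16F10 (red, 1416 cells) and B16F0 (blue, 2194 cells). Grb14 starts at 30.4% of B16F10 cells and keeps a long tail, with 52 B16F10 cells at 10 or more UMIs, while Lhfp starts at 65.0% and has 1 such cell.

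The table of cells deposited by the authors assigns each cell to a cluster, a cycling class and a trajectory state. Clusters C3, C4 and C5 held 306, 212 and 1045 B16F10 cells, and clusters C1, C2, C3 and C4 held 816, 644, 640 and 469 B16F0 cells. Classes of fewer than 50 cells were not described. C3 was mostly non-cycling in both lines (280 of 306 B16F10 cells and 569 of 640 B16F0 cells) and C4 cycling (212 of 212 and 467 of 469), while C5 in B16F10 was mostly cycling (986 of 1045). In B16F0, C1 was mostly non-cycling (597 of 816) and C2 cycling (641 of 644). All genes of these cells may have set the clusters, so levels by cluster are a description.

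Within B16F10, Grb14 differed more between clusters than any of the other 4 genes. Grb14 stood at 118 CPM (111 to 125) in C3, 191 CPM (180 to 202) in C4 and 11.3 CPM (10.3 to 12.4) in C5. C3 and C4 together are a minority of B16F10 cells, yet C3 held 41.1% and C4 42.8% of all Grb14 UMIs, against 17.6% and 11.3% of all UMIs of the library. C5 held 15.9% of Grb14 UMIs and 70.4% of all UMIs. Of the 117 thinned B16F10 cells with at least 5 Grb14 UMIs, 58 were in C3, 51 in C4 and 8 in C5. The insulin receptor adaptor was thus high in 2 of the 3 B16F10 clusters, one mostly outside the cell cycle and one within it.

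Grb14 was the 1 of the 5 genes at least 2-fold higher in C3 than in C5 of B16F10, with a log2 ratio of 3.38 (3.22 to 3.54), a threshold passed by 1.88% of genes at 20 CPM or more. The same held for C4 over C5, with a log2 ratio of 4.07 (3.92 to 4.23), where 2.7% of genes passed. The log2 ratios of C3 over C5 for the other genes were 0.94 for Pla2g2e, 0.70 for Pde10a, 0.46 for Lhfp and 0.29 for Fam198b. For C4 over C5 they were 0.93 for Pla2g2e, 0.29 for Pde10a, 0.66 for Lhfp and 0.33 for Fam198b. All 5 genes were therefore higher in C3 and in C4 than in C5, 4 of them by less than 2-fold. The median log2 ratio over all genes at 20 CPM or more was -0.15 for C3 over C5 and 0.01 for C4 over C5. The share of all genes above 0 was not counted. Cells of C3 and C4 had medians of 30159.5 UMIs and 29693 UMIs, against 37725 UMIs in C5. The mitochondrial transcript mt-Co1 stood at 9506 CPM in C3, 10719 CPM in C4 and 6849 CPM in C5 of B16F10, and its part in these differences was not tested. At equal depth, in thinned cells, Grb14 was seen in 52.9% of C3, 74.0% of C4 and 16.5% of C5 cells.

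In B16F0 the same cluster names went with a different pattern for Lhfp. Grb14 stood at 15.3 CPM in C3, 12.6 CPM in C4, 1.86 CPM in C1 and 2.68 CPM in C2. Pla2g2e stood at 34.9 CPM in C3, 21.0 CPM in C4, 6.63 CPM in C1 and 4.59 CPM in C2. Both genes were thus higher in C3 and C4 than in C1 and C2, with log2 ratios of C3 over C1 of 3.04 for Grb14 and 2.40 for Pla2g2e, and of C4 over C2 of 2.23 and 2.19. Lhfp ran the other way, at 5.18 CPM in C3, 5.94 CPM in C4, 16.3 CPM in C1 and 18.7 CPM in C2, with log2 ratios of -1.65 for C3 over C1 and -1.66 for C4 over C2. Among genes at 20 CPM or more, 1.12% passed 2-fold upward and 0.765% downward in C3 over C1, and 1.2% upward and 0.501% downward in C4 over C2, a minimum that Grb14 and Lhfp did not reach in these B16F0 clusters.

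Pde10a stood at 145 CPM in C3, 109 CPM in C4 and 89.0 CPM in C5 of B16F10, and at 19.2 CPM in C3, 10.1 CPM in C4, 10.2 CPM in C1 and 8.72 CPM in C2 of B16F0, so C3 was the highest of the described clusters in both lines. Fam198b varied least, at 306 CPM in C3, 313 CPM in C4 and 250.2 CPM in C5 of B16F10, and at 62.8 CPM in C3, 63.3 CPM in C4, 64.1 CPM in C1 and 76.1 CPM in C2 of B16F0. For 4 of the 5 genes every B16F10 cluster stood above every B16F0 cluster. Grb14 was the exception, since B16F10 cells of C5, at 11.3 CPM, lay below B16F0 cells of C3, at 15.3 CPM, and their intervals (10.3 to 12.4 and 13.8 to 17.0) did not overlap.

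**Figure D2:**
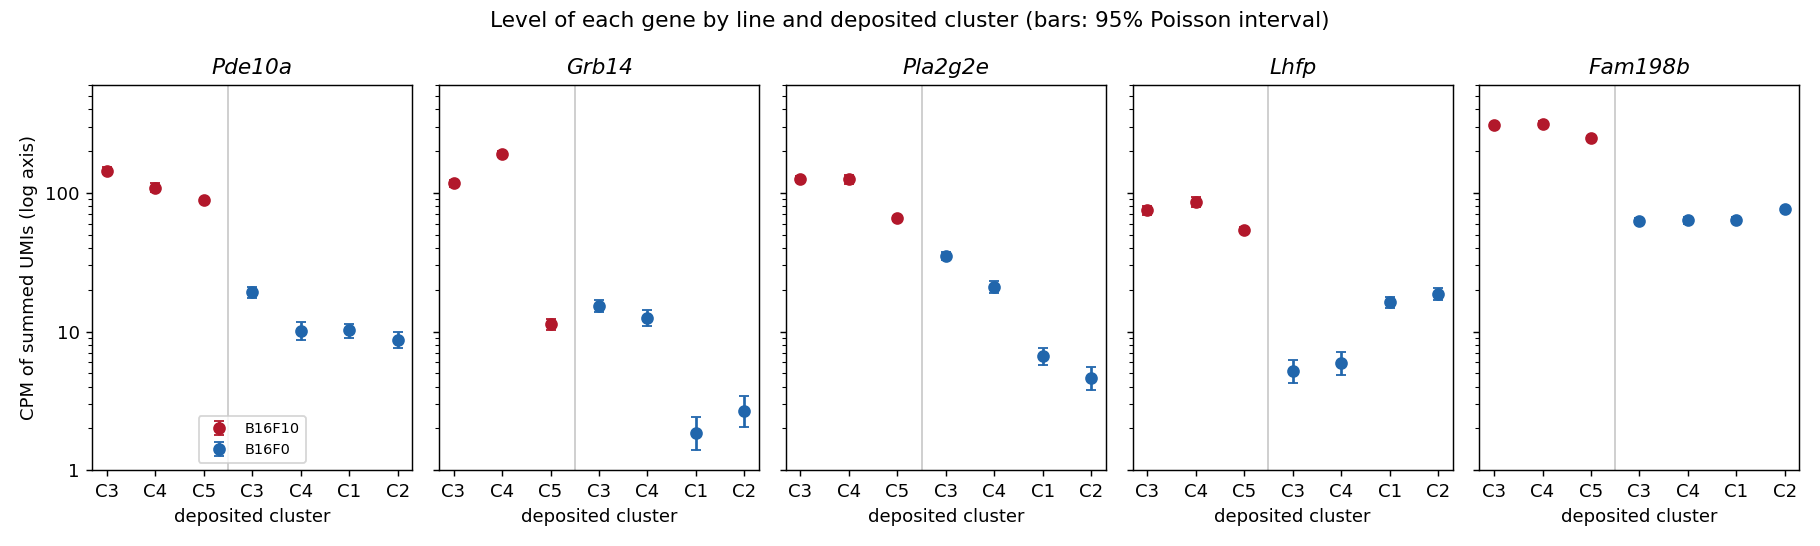
Level of each gene in CPM (log axis) in the deposited clusters C3, C4 and C5 of B16F10 (red) and C3, C4, C1 and C2 of B16F0 (blue), with 95% Poisson intervals. Grb14 stands at 11.3 CPM in C5 of B16F10, inside the B16F0 range, while the other 4 genes stay above all B16F0 clusters; Lhfp is lower in C3 and C4 than in C1 and C2 of B16F0 and higher in C3 and C4 than in C5 of B16F10.

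Within the clusters that both lines hold in number, the line difference remained for all 5 genes. In C3 all 5 were at least 2-fold higher in B16F10, where 2.01% of genes passed, with log2 ratios of 2.92 for Pde10a, 2.94 for Grb14, 1.85 for Pla2g2e, 3.85 for Lhfp and 2.29 for Fam198b. In C4 all 5 passed as well, beside 4.4% of genes, with log2 ratios of 3.42 for Pde10a, 3.92 for Grb14, 2.58 for Pla2g2e, 3.85 for Lhfp and 2.31 for Fam198b. Lhfp, at 74.7 CPM in B16F10 and 5.18 CPM in B16F0 within C3, had a wider gap inside these clusters than over all cells (2.32). These ratios use the cells that chose the genes, and nothing is read from the counts. C5 of B16F10 over C1 and C2 of B16F0 gave log2 ratios of 3.22 for Pde10a, 2.34 for Grb14, 3.52 for Pla2g2e, 1.64 for Lhfp and 1.85 for Fam198b, and 3.31% of genes passed.

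In B16F10 all 5 genes differed less between non-cycling and cycling cells than between C3 and C5. Non-cycling B16F10 cells stood above cycling ones for all 5, with log2 ratios of 1.32 for Grb14 (97.0 CPM in non-cycling and 38.8 CPM in cycling cells), 0.62 for Pla2g2e, 0.52 for Pde10a, 0.31 for Lhfp and 0.22 for Fam198b. Grb14 was the 1 gene past 2-fold, beside 0.909% of all genes. The median log2 ratio over all genes was -0.11 there, and the share of all genes above 0 was not counted. In B16F0 the log2 ratios were 0.76 for Pla2g2e, 0.52 for Pde10a, 0.42 for Grb14, -0.11 for Lhfp and -0.11 for Fam198b, none past 2-fold, beside 0.178% of genes. Pde10a had 0.52 in both lines over all cells, but within C5 of B16F10 it stood at 86.1 CPM in non-cycling and 89.1 CPM in cycling cells, a log2 ratio of -0.05 (-0.28 to 0.18).

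The clusters differ in their share of cycling cells, so C4 and C5 of B16F10 were also compared within cycling cells. Grb14 stood at 191 CPM in cycling C4 cells and at 10.8 CPM in cycling C5 cells, a log2 ratio of 4.14 (3.98 to 4.31), and the other 4 genes had ratios between 0.29 and 0.94. Within non-cycling cells, Grb14 stood at 114 CPM in the 280 C3 cells and at 21.9 CPM in the 59 C5 cells, a log2 ratio of 2.38 (1.94 to 2.86), while Lhfp had 0.04 (-0.22 to 0.32) and Fam198b 0.09 (-0.04 to 0.23). The intervals of Lhfp and Fam198b held 0 there. In B16F0, Lhfp remained lower within matched cells, with log2 ratios of -1.65 for C4 over C2 in cycling cells and -1.93 for C3 over C1 in non-cycling cells.

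Between the lines, cycling cells gave log2 ratios of 3.20 for Pde10a, 2.58 for Grb14, 2.62 for Pla2g2e, 2.21 for Lhfp and 1.91 for Fam198b, with 5 of 5 past 2-fold beside 1.32% of genes. Non-cycling cells gave 3.21, 3.48, 2.48, 2.63 and 2.24 for the same genes in the same order, with 5 of 5 past 2-fold beside 2.49% of genes. Grb14 had the widest difference between the classes. In B16F10 it stood at 97.0 CPM in non-cycling and 38.8 CPM in cycling cells. Of the 1230 cycling B16F10 cells, 986 were in C5, where Grb14 was low, while cycling C4 cells stood at 191 CPM. Within C5, Grb14 stood at 21.9 CPM in non-cycling and 10.8 CPM in cycling cells, a log2 ratio of 1.02 (0.53 to 1.48). The part of the clusters in the difference between cycling classes was not tested.

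In trajectory state 1, Grb14 fell short of the 2-fold threshold, while all 5 genes were higher in B16F10. State 1 held 1254 B16F10 cells and 165 B16F0 cells, and state 7 held 319 B16F10 cells and 454 B16F0 cells. In state 1, Grb14 stood at 38.1 CPM (36.3 to 39.9) in B16F10 and at 21.6 CPM (18.1 to 25.5) in B16F0, a log2 ratio of 0.82 (0.57 to 1.08). The other 4 genes passed 2-fold in state 1, beside 1.27% of all genes, with log2 ratios of 2.92 for Pde10a, 1.41 for Pla2g2e, 2.50 for Lhfp and 1.53 for Fam198b. Of the 165 B16F0 cells of state 1, 152 were in C4, and of the 1254 B16F10 cells 1014 were in C5, so the state compares unlike clusters.

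In state 7 all 5 genes passed 2-fold, beside 1.64% of genes, with log2 ratios of 2.60 for Pde10a, 2.36 for Grb14, 1.57 for Pla2g2e, 3.60 for Lhfp and 2.20 for Fam198b. Over the B16F0 states 1, 2, 4, 5, 6 and 7, Grb14 stood at 21.6, 2.61, 4.25, 4.04, 2.52 and 20.5 CPM, so states 1 and 7 were the high ones. Pla2g2e stood at 28.3, 8.10, 8.30, 11.2, 10.7 and 39.9 CPM over those states, again highest in 7 and 1. Lhfp stood at 10.3, 17.5, 15.4, 11.5, 13.0 and 6.11 CPM, lowest in state 7. Pde10a ran between 6.93 CPM in state 4 and 23.0 CPM in state 7, and Fam198b between 59.7 CPM in state 5 and 89.9 CPM in state 1.

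**Figure D3:**
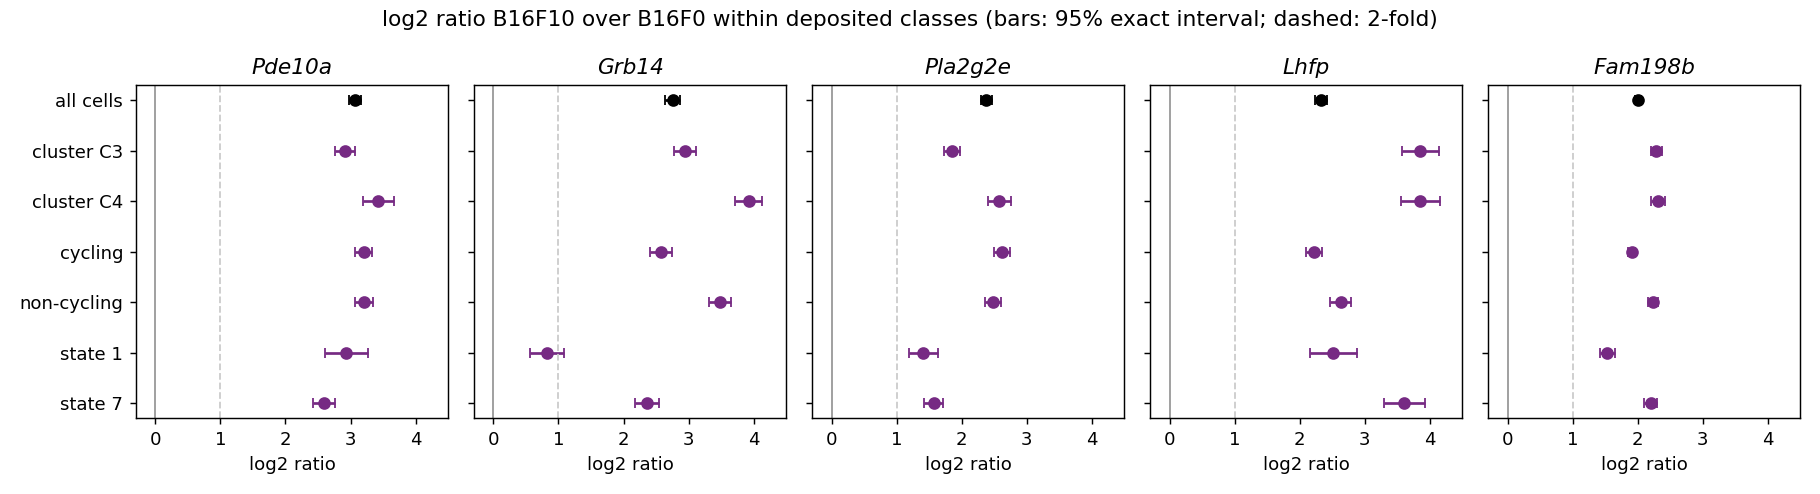
The log2 ratio of B16F10 over B16F0 for each gene over all cells (black) and within deposited clusters, cycling classes and trajectory states (purple), with 95% exact intervals; the solid line marks no difference and the dashed line 2-fold. Every point lies above 0, and Grb14 in state 1, at 0.82, is the 1 point below the dashed line.

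Co-occurrence in single cells was measured over the 10 pairs of genes, as the number of thinned cells with a UMI of both divided by the number that the product of the 2 shares gives. In B16F10 the ratio was above 1 for 9 of 10 pairs, with a median of 1.02 and a range of 0.998 to 1.17. The interval of the share of cells with both genes held the product for every pair except Grb14 and Lhfp (20.9% to 25.4% against 19.8%). How many pairs of other genes lie above 1 was not counted. Fam198b, seen in 96.2% of thinned B16F10 cells, leaves its 4 pairs little room above 1. When at least 2 UMIs of each gene were asked for, 10 of 10 ratios were above 1. The highest were 1.33 for Grb14 and Lhfp, 1.27 for Pde10a and Grb14 and 1.22 for Pde10a and Lhfp. The other pairs lay between 1.003 and 1.17. Without thinning, 8 of 10 ratios were above 1, and these same pairs had 1.08 for Grb14 and Lhfp, 1.02 for Pde10a and Grb14 and 1.04 for Pde10a and Lhfp. In thinned cells with a UMI of each gene, Grb14 and Lhfp had the highest ratio, 1.17. There 327 cells held both against 279.7 by the product. Lhfp was seen in 76.0% of B16F10 cells with a Grb14 UMI and in 60.2% of those without. Pla2g2e and Fam198b had the lowest, 0.998.

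In B16F0, where the genes were sparser, 8 of 10 ratios were above 1, and the 10 lay between 0.839 and 1.57. The interval of the share with both lay above the product for Grb14 and Pla2g2e, Lhfp and Fam198b, and Pde10a and Fam198b. It held the product for the other pairs. Grb14 and Pla2g2e had the highest, 1.57, with 81 cells holding both against 51.6 by the product, and both were higher in C3 and C4 of that line. Within B16F0 clusters the ratio of this pair was 1.18 in C3 and 1.14 in C4. It was 0.52 in C1 and 1.63 in C2, from 2 cells and 4 cells holding both. Pla2g2e and Lhfp, which ran in opposite directions over the B16F0 clusters, had the lowest ratio, 0.839. It came from 67 cells holding both against 79.9 by the product, which the interval held. Within those clusters their ratio was 0.48 in C1, 0.96 in C2, 1.25 in C3 and 1.52 in C4. These rest on 8, 11, 28 and 20 cells holding both, and the intervals of C2, C3 and C4 held the product. Lhfp and Fam198b followed Grb14 and Pla2g2e at 1.35, and Fam198b was seen in 80.8% of B16F0 cells with an Lhfp UMI and in 55.9% of those without. In B16F10, where nearly every cell holds Fam198b, the ratio of the same pair was 1.02.

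The amounts of Lhfp and Fam198b per cell were weakly related in both lines. Across the 1416 thinned B16F10 cells, Pearson's r of ln(1 + UMIs) was 0.29 (Spearman's rho 0.28) for this pair, the highest of the 10, and across the 2194 thinned B16F0 cells it was 0.33 (rho 0.28). Within the B16F10 clusters it was 0.30 in C3, 0.37 in C4 and 0.24 in C5, so its sign and rough size did not rest on 1 cluster. Fam198b ranked 4 among 9087 genes by r with Lhfp in B16F10 and 10 among 8964 in B16F0, and Lhfp ranked 4 and 3 by r with Fam198b. Cells of 1 library share its preparation, thinned cells share 1 total, and these values are descriptions over cells with no test.

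The other pairs were weaker. Grb14 and Lhfp had an r of 0.21 and Pde10a and Lhfp 0.20 over all B16F10 cells, and the remaining 7 pairs lay between -0.0076 and 0.155. Within clusters Grb14 and Lhfp had 0.26 in C3, 0.13 in C4 and 0.11 in C5. Grb14 and Pla2g2e, at 0.12 over all B16F10 cells, had 0.09 in C3, -0.08 in C4 and -0.03 in C5, so the pooled value of this pair was not seen within C4 and C5.

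**Figure D4:**
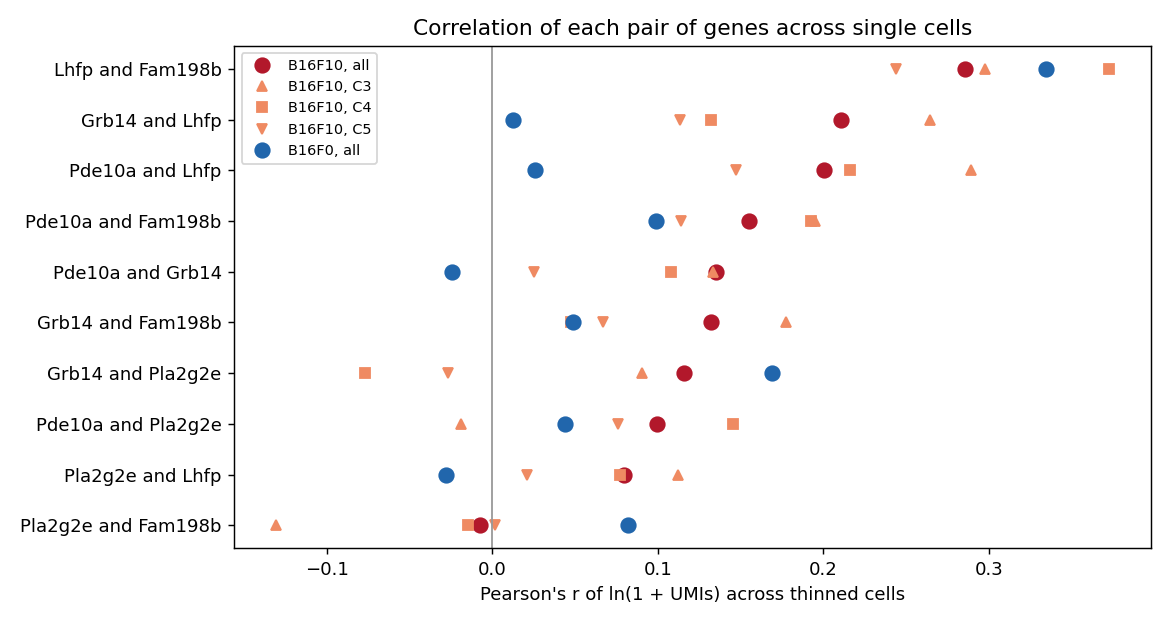
Pearson's r of ln(1 + UMIs) across thinned cells for the 10 pairs, over all B16F10 cells (red circles), within B16F10 clusters C3, C4 and C5 (orange) and over all B16F0 cells (blue circles). Lhfp and Fam198b are the 1 pair above 0.2 in all 5 sets of cells, at 0.29 over all B16F10 cells and 0.33 over all B16F0 cells.

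Counted per cell, thinned B16F10 cells held a mean of 3.20 of the 5 genes and thinned B16F0 cells 1.28. All 5 were seen in 170 of 1416 B16F10 cells, 12.0% (10.4 to 13.8), against 111 cells or 7.84% by the product of the 5 shares. In B16F0 all 5 were seen in 1 of 2194 cells, against 0.953 by the product. None of the 5 was seen in 3 B16F10 cells and in 501 B16F0 cells. Within B16F10 the share of cells with all 5 was 25.7% in C3, 30.5% in C4 and 5.13% in C5, against products of 19.4%, 25.0% and 3.66% within the same clusters. As a ratio to the product, the excess was thus smaller within each cluster than over all cells, and the order of the clusters follows that of Grb14, the gene least often seen.

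**Figure D5:**
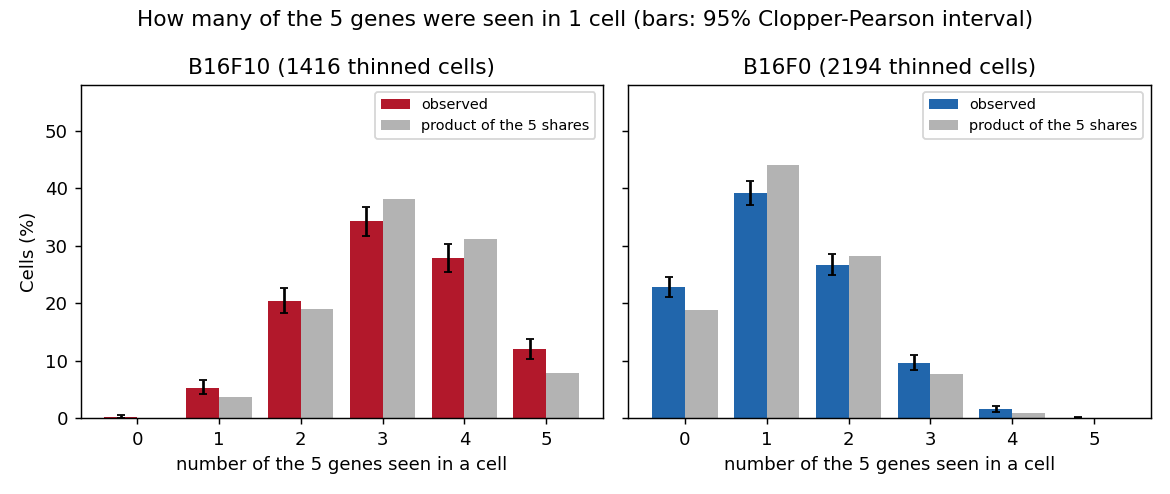
Share of thinned cells (percent) in which 0 to 5 of the 5 genes were seen, observed (coloured, with 95% Clopper-Pearson intervals) and as the product of the 5 shares gives (grey), in B16F10 (left) and B16F0 (right). All 5 genes were seen in 12.0% of B16F10 cells, above the 7.84% of the product, and in 1 B16F0 cell.

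For each gene the 5 most similar genes across thinned B16F10 cells were taken by Pearson's r among 9087 others. Grb14 had the highest values, with Nupr1 at 0.57, Ppp1r15a at 0.57, Cyb5r1 at 0.51, Angptl6 at 0.47 and 5430416N02Rik at 0.44. Nupr1, a stress-induced chromatin-associated protein, stood at 322 CPM in C3, 431 CPM in C4 and 77.9 CPM in C5 of B16F10, the same order as Grb14. Ppp1r15a, the stress-induced subunit that directs a phosphatase to the translation factor eIF2α, stood at 159, 250.5 and 35.6 CPM. Over all cells Nupr1 was more than 1.5-fold lower in B16F10, with a log2 ratio of -0.61. Ppp1r15a had 0.36, less than 1.5-fold higher, and Grb14 had 2.75.

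Pde10a was closest to Deptor, an inhibitor of the kinase mTOR, at 0.36, followed by Ppargc1a, a coactivator of mitochondrial genes, at 0.32, mt-Co1 at 0.30, Syt4 at 0.28 and Mitf at 0.28. Pla2g2e was closest to Nckap5l at 0.43, followed by the receptor kinase gene Met at 0.34, Enho at 0.29, Gpr137b at 0.26 and Kctd12 at 0.25. Lhfp was closest to the receptor gene Tnfrsf12a at 0.37, followed by the matrix protein gene Sparc at 0.32, Gadd45a at 0.29, Fam198b at 0.29 and the adhesion molecule gene Mcam at 0.28. Fam198b had Mcam, Tmsb10, Tnfrsf12a and Lhfp at 0.29 each and Sparc at 0.27. Lhfp and Fam198b thus shared Tnfrsf12a, Sparc and Mcam among their 5, while the lists of Pde10a, Grb14 and Pla2g2e named no gene of another of the 5 lists.

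Over the 7 line-by-cluster classes, among 5979 genes, the closest profile of log2(CPM + 1) was that of Wbp1l for Pde10a (r = 0.997), Tbcel for Grb14 (0.997), Ubl3 for Pla2g2e (0.998), Olfr889 for Lhfp (0.987) and App, the amyloid precursor protein gene, for Fam198b (0.997). Behind these came Inpp5f, Ppargc1a, Map3k10 and Sgip1 for Pde10a, Atf6, Zfp329, Xpr1 and Ywhag for Grb14, Abl2, Rnf149, Mir670hg and Wdr26 for Pla2g2e, Sipa1l1, Fn1, Ankrd40 and Map4k5 for Lhfp, and Tesk1, Mcrip2 and Eif2s3x for Fam198b. Ppargc1a was the 1 gene that both measures named for the same gene, Pde10a. Among the 5 genes themselves, Pde10a and Fam198b had the most similar class profiles (r = 0.97), and Grb14 and Lhfp the least (0.60). A class profile over 7 points that fall into 2 lines reaches high values easily, and these are descriptions with no test.

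The cell table also holds scores deposited by the authors. Across thinned B16F10 cells the G2/M score had an r of -0.22 with Pde10a and -0.18 with Grb14, and the S score -0.21 with Grb14. Pseudotime had 0.28 with Grb14 and 0.20 with Pde10a. The MITF score had 0.18 with Pla2g2e and -0.11 with Lhfp in B16F10, and 0.21 with Pla2g2e, -0.37 with Lhfp and -0.26 with Fam198b across B16F0 cells. Pla2g2e and Lhfp had opposite signs with the MITF score in each line. Which genes entered the MITF score is not stated by the cell table or the labels.

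The relatives and pathway partners of the 5 genes mostly differed less between the lines. Of the 7425 genes that reached 10 CPM in one line or the other, 11.3% were higher in B16F10 by 1.5-fold or more and 6.14% lower, with a median log2 ratio of 0.13. Of 14 other phosphodiesterase genes measured, 5 reached 10 CPM, and 3 of these passed 1.5-fold upward and 0 downward, and the median log2 ratio was 0.70. The 3 were Pde5a, specific for cyclic GMP, at 0.99, Pde7a, specific for cyclic AMP, at 0.78, and Pde4b, also specific for cyclic AMP, at 0.70. Below 10 CPM, Pde3a had 5 UMIs in B16F10 and 468 UMIs in B16F0, a log2 ratio of -5.82 (-7.45 to -4.58), and Pde1c had -1.70. The 14 log2 ratios all lay below the 3.07 of Pde10a, with Pde1b closest at 3.05 (0.82 to 6.28) from 10 UMIs in B16F10 and 2 UMIs in B16F0.

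Of the genes that make, sense or answer to cyclic nucleotides, 17 of 25 measured reached 10 CPM, of which 5 were 1.5-fold higher and 3 lower, with a median log2 ratio of 0.40. Prkg2, the membrane-bound cyclic GMP-dependent kinase, stood at 4.72 CPM in B16F10 and 23.5 CPM in B16F0. Creb1, the transcription factor that protein kinase A activates, had a log2 ratio of 0.90, and Gnas, the stimulatory G protein subunit that drives cyclic AMP synthesis, -0.79. The list was thus split in direction around Pde10a.

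Of the receptor kinase and insulin signalling genes, 18 of 31 measured reached 10 CPM, of which 3 were 1.5-fold higher and 1 lower, with a median log2 ratio of 0.31. Met stood at 142 CPM in B16F10 and 13.1 CPM in B16F0, a log2 ratio of 3.44, and Erbb3, a receptor of the epidermal growth factor receptor family, had -1.09. Akt1, a kinase downstream of insulin, had 0.61. Insr, the insulin receptor that Grb14 binds, stood at 7.42 CPM in B16F10 and 8.32 CPM in B16F0, a log2 ratio of -0.16 (-0.34 to 0.01), so Grb14 differed 6.75-fold between the lines while the interval of the receptor's log2 ratio held 0. The adaptors Grb7 and Grb10 were not analysed here.

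Of the phospholipase A2 and eicosanoid genes, 8 of 19 measured reached 10 CPM, of which 1 was 1.5-fold higher and 2 lower, with a median log2 ratio of -0.29. Ptgds, a prostaglandin D synthase, stood at 222 CPM in B16F10 and 1393 CPM in B16F0, a log2 ratio of -2.65, and Hpgds, the other prostaglandin D synthase, had -2.59. Ptges2, a prostaglandin E synthase, had 1.06. Pla2g5, another secreted phospholipase A2 gene and the nearest measured gene before Pla2g2e on the chromosome, stood at 0.881 CPM in B16F10 and 0.594 CPM in B16F0. Other Pla2g2 genes were not analysed here.

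Lhfpl2, a relative of Lhfp, stood at 18.7 CPM in B16F10 and 15.8 CPM in B16F0, a log2 ratio of 0.24, and Lhfpl4 stood at 1.39 CPM in B16F10 and 2.62 CPM in B16F0. Of the secretory pathway kinase genes, 3 of 7 measured reached 10 CPM, of which 1 was 1.5-fold higher and none lower. That gene, Fam69b, stood at 18.5 CPM in B16F10 and 3.07 CPM in B16F0, a log2 ratio of 2.59, while Fam20b, a kinase of xylose in proteoglycans, had 0.49 and Pomk, a kinase of mannose on dystroglycan, 0.35. Fam198a was not analysed here.

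The nearest measured genes on the chromosome were read at the same 10 CPM minimum. Of 30 neighbours, 3 on each side of each of the 5 genes, 11 reached 10 CPM, of which 3 were at least 1.5-fold higher in B16F10, beside 11.3% of all genes, and none was 2-fold higher or lower. Their log2 ratios lay between 0.02 and 0.87, with a median of 0.38. Grb14 lies between Fign, at 11.03 CPM in B16F10 and 6.18 CPM in B16F0 (log2 ratio 0.83), and Cobll1, at 19.1 CPM in B16F10 and 10.5 CPM in B16F0 (0.87). Camk2n1, 2 genes before Pla2g2e, had 0.60. Among the neighbours below 10 CPM, Ctso, 3 genes after Fam198b, stood at 1.46 CPM in B16F10 and 7.61 CPM in B16F0, a log2 ratio of -2.38 (-2.72 to -2.05), opposite to Fam198b. Gm42901, annotated as an antisense gene overlapping the start of Lhfp, had 16 UMIs in B16F10 and 5 UMIs in B16F0, a log2 ratio of 2.41 (0.90 to 4.21). Strand handling is not stated, and whether reads of Lhfp were counted for Gm42901 where they overlap was not tested. Nbl1, 3 genes after Pla2g2e, had 8 UMIs in B16F10 and 4 UMIs in B16F0, a log2 ratio of 1.73 (-0.17 to 3.91).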

How the data were processed

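Both lines were measured with the Chromium 3' kit of chemistry v2, per the labels' protocols. The submitters' processing notes name the tools Cell Ranger 3.0.0 and Seurat 3.0 and the genome build mm10. Alignment, strand handling and cell filters are given in none of the sources used here. From these steps came the deposited raw UMI counts of 14959 genes in 1574 B16F10 cells and 2582 B16F0 cells, and a deposited cell table with classes and scores, made by the authors in ways that no source used here describes. Cells were assigned to a line by that table, and all were kept. No doublet caller was run, and an alternative left out the 5% of cells with the most UMIs.

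Counts were summed per line or class and divided by the total. Levels carry exact Poisson intervals, ratios exact conditional binomial intervals and shares Clopper-Pearson intervals, all at 95%. They cover counting error only, and a gene with 0 counts could reach 3 counts, 0.0529 CPM in B16F10 and 0.0318 CPM in B16F0. No p-value was computed, since each line has 1 library and cells are not replicates. Shares and correlations used cells thinned at random to 23173 UMIs, without replacement and at the depth of the 10th percentile of B16F10 cells, and correlations took genes averaging 0.1 thinned UMI or more. Scaling factors came from edgeR 4.0.16 and DESeq2 1.42.0 in R 4.3.3, all else was computed in Python 3.11.15 with scipy 1.17.1, pandas 2.3.3 and numpy 2.4.6, and the scripts were tested on simulated data. Positions came from GENCODE, in which 14751 symbols matched 1 gene, and promoter windows from RefSeq, in which all 5 genes matched.

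The 5 genes and the gene lists were chosen with earlier results of these data known. Names besides the 5 come from the 3 genes of each list with the widest ratio at 10 CPM or more, close relatives, the 3 nearest measured genes on each side and the 5 genes most similar across cells or classes, of which 1 is not reported here. The neighbours are given by counts and ranges, and those named among them were picked after their values were seen. Alternatives were other scalings, CPM minimums, thinnings and sets of cells.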

Additional observations from a re-analysis of the deposited data

Results flagged for a closer look

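Lhfp and Fam198b moved in opposite directions within B16F10 and within B16F0 under contrasts paired by the names of the deposited classes. None of these differences was tested, since each line has 1 library, and clusters of the same name may hold unlike cells in each line. For C3 over the other main cluster (C5 in B16F10, C1 in B16F0), the log2 ratio of Lhfp was 0.46 in B16F10 and -1.65 in B16F0, a difference of 2.12. C5 of B16F10 was mostly cycling, whereas C1 of B16F0 was mostly non-cycling. Within non-cycling cells, the log2 ratio of Lhfp was 0.04 (-0.22 to 0.32) for C3 over C5 in B16F10. It was -1.93 for C3 over C1 in non-cycling B16F0 cells. For C4 over the other main cluster (C5 in B16F10, C2 in B16F0), the log2 ratio of Lhfp was 0.66 in B16F10 and -1.66 in B16F0, a difference of 2.32, and that of Fam198b was 0.33 in B16F10 and -0.27 in B16F0, a difference of 0.59. Within cycling cells, these C4 ratios were 0.68 in B16F10 and -1.65 in B16F0 for Lhfp. They were 0.34 in B16F10 and -0.26 in B16F0 for Fam198b. Non-cycling over cycling cells gave 0.22 for Fam198b in B16F10 and -0.11 in B16F0, a difference of 0.33. State 7 over state 1 gave 0.34 for Lhfp in B16F10 and -0.76 in B16F0, a difference of 1.10, and 0.22 for Fam198b in B16F10 and -0.44 in B16F0, a difference of 0.66. Cells of state 1 were mostly in C5 in B16F10 and mostly in C4 in B16F0.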

How the results depend on the processing

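All 5 genes stayed at least 2-fold higher in B16F10 under the 8 alternatives run for that count. The median log2 ratio of the 5 genes, 2.38, was 2.28 with TMM factors from edgeR, 2.28 with size factors from DESeq2, 2.50 as a mean of per-cell CPM, 2.49 after leaving out the deepest 5% of cells, 2.58 in cycling and 2.63 in non-cycling cells. The TMM factors moved the median of all genes by -0.097 and the DESeq2 factors by -0.10. The count of all genes at least 2-fold higher, 81, was 58 with the TMM factors and 57 with the DESeq2 factors. It was 122 at a minimum of 10 CPM, 32 at 50 CPM and 954 with no minimum. Single log2 ratios ranged over these alternatives from 2.97 to 3.21 for Pde10a, 2.58 to 3.48 for Grb14, 2.28 to 2.62 for Pla2g2e, 2.21 to 2.63 for Lhfp and 1.90 to 2.24 for Fam198b. All 5 shares of cells with a UMI stayed higher in B16F10 with no thinning, at 10000 UMIs and when 2 UMIs were asked for. Co-occurrence was above the product for 7 to 10 of 10 pairs, a count with no such count for pairs of other genes beside it. The levels of all 5 genes in C3 and C4 stood above those in C5 of B16F10 under the 3 alternatives run for it, but in non-cycling cells the intervals of C3 over C5 held 0 for Lhfp (-0.22 to 0.32) and Fam198b (-0.04 to 0.23). The alternatives of shared barcodes, single clusters and cycle-matched clusters were added after seeing the data. No paired analysis was possible because each line has 1 library and the labels give no replicate numbers. Leaving out a library was not possible either. The main limits are 1 library per line, clusters that may rest on the genes described, and sparse counts of Grb14, Pla2g2e, Pde10a and Lhfp in B16F0.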
